A study of Mus musculus with 11 samples.

Results

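Notch1, Hes1, Hes5, Sox2, Sox9, Nfia, Nfib, Nfix, Id1 and Id3 are genes of the Notch pathway and of the Sox, nuclear factor I (NFI) and Id families of transcriptional regulators. They were taken by name, and all 10 were found among the 25311 genes of the deposited count matrix. Their levels were followed in Müller glia, the main glia of the retina, and in the other retinal cell classes, and compared between Phase I retinopathy of prematurity (ROP) and control mice and between 2 diets.

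All retinas came from C57BL/6J pups at postnatal day 10 (P10) and were processed with inDrop v3, a droplet method that counts RNA molecules of single cells by unique molecular identifiers (UMIs). Control mice received the vehicle PBS (n = 3), and Phase I ROP mice were made hyperglycemic with streptozotocin (STZ, n = 3). In 2 further groups, STZ-treated litters were nursed by dams on a diet enriched in ω-3 (n = 2) or ω-6 (n = 3) long-chain polyunsaturated fatty acids. Each diet was given to the dam of a cage, so diet and cage cannot be told apart. STZ is a toxin of insulin-producing cells given to the whole animal, and STZ litters were kept smaller than litters without STZ to equalise weight gain. The study calls the compared mice littermates, and which pups shared a litter is not given in the sources used here, so litter and treatment may not be told apart. Mice on these diets without STZ were not analysed here.

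Notch1 is a membrane receptor that ligands of neighbouring cells activate, after which its cleaved inner domain enters the nucleus, binds the DNA-binding protein RBPJ and switches on repressors such as Hes1 and Hes5. In the developing retina this signal holds back neuronal differentiation, and late progenitors in which it stays active become Müller glia. Sox2 and Sox9 maintain retinal progenitors and persist in Müller glia, the 3 NFI factors drive late progenitors toward glia and bipolar cells, and Id1 and Id3 are targets of bone morphogenetic protein (BMP) signalling that lack a DNA-binding domain and block proneural factors by pairing with their partners.

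The promoters of Hes5 and Id3 are shown because they are the direct outputs of the Notch and the BMP signal among the members whose promoter sequence was at hand. Both are from RefSeq (GRCm38.p6) and run from 250 bases before to 50 bases after the transcription start, Hes5 at chr4:154960673-154960972 and Id3 at chr4:136143572-136143871, both on the plus strand. Capitals mark, on either strand, GTGGGAA, the core of the RBPJ site, in Hes5 and GTCT, the short SMAD motif, in Id3.
Hes5: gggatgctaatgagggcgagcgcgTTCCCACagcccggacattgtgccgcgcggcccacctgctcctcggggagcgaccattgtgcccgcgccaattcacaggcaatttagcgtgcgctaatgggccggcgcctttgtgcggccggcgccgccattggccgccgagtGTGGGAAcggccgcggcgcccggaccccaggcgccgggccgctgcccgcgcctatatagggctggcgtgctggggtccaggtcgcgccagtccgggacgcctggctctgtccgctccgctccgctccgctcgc
Id3: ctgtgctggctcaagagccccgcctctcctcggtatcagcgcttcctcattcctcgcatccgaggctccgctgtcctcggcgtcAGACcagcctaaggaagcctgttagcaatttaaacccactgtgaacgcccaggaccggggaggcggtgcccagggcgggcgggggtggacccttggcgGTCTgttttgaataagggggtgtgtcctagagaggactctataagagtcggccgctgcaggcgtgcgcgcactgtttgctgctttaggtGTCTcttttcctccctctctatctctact
The Hes5 window held 2 RBPJ matches, 226 and 83 bases before the start, and the motif was found in 6.4% of 32851 promoters of this length. Among the 9 promoter windows that matched 6 of the 10 members (Notch1, Hes5, Sox2, Nfia, Nfix and Id3), the RBPJ core was found in 1. Id3 held 3 SMAD matches, 166 and 68 bases before and 21 bases after the start, but this short motif was present in 88.0% of all promoters and in 7 of the 9 windows. The Sox core ACAAAG was found in 3 of the 9 windows and in 18.7% of all promoters, and the E-box CANNTG, bound by the basic helix-loop-helix factors that Hes and Id proteins counter, in 5 of 9 and in 72.3%.

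Total UMIs per mouse ran from 2565568 to 6517776. Of 20067 cells, 20033 had more than 300 genes and fell into 25 clusters, of which all but 2 (315 cells) were named from canonical markers. The tested classes were Müller glia (1425 cells), rods (9863), cones (1126), bipolar cells (3596) and amacrine cells (3287). Of the cells, 2352 carried a barcode that also occurred in another library. Control libraries stood apart from all STZ libraries: in Müller glia the mitochondrial rRNA mt-Rnr2 lay at 20359 to 34033 UMIs per 1000000 UMIs of the class (CPM) in control and at 2375 to 7761 in the 8 STZ mice, and the summed dissociation and immediate early genes at 1403 to 2435 and 7693 to 12263. Since every control mouse was on 1 side, the treatment and the handling of the libraries cannot be told apart in any Phase I ROP comparison.

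Most of the 10 genes were highest in Müller glia among the 5 large classes. Over the 11 mice, the levels of Notch1, Hes1, Sox2, Sox9, Id1 and Id3 in Müller glia did not overlap those in any of the 4 neuronal classes, whereas Nfia, Nfib and Nfix were also high in bipolar or amacrine cells. The levels by class are given as descriptions without a test. A level is CPM within the summed cells of a class and is compared between classes for 1 gene at a time.

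**Figure D1:**
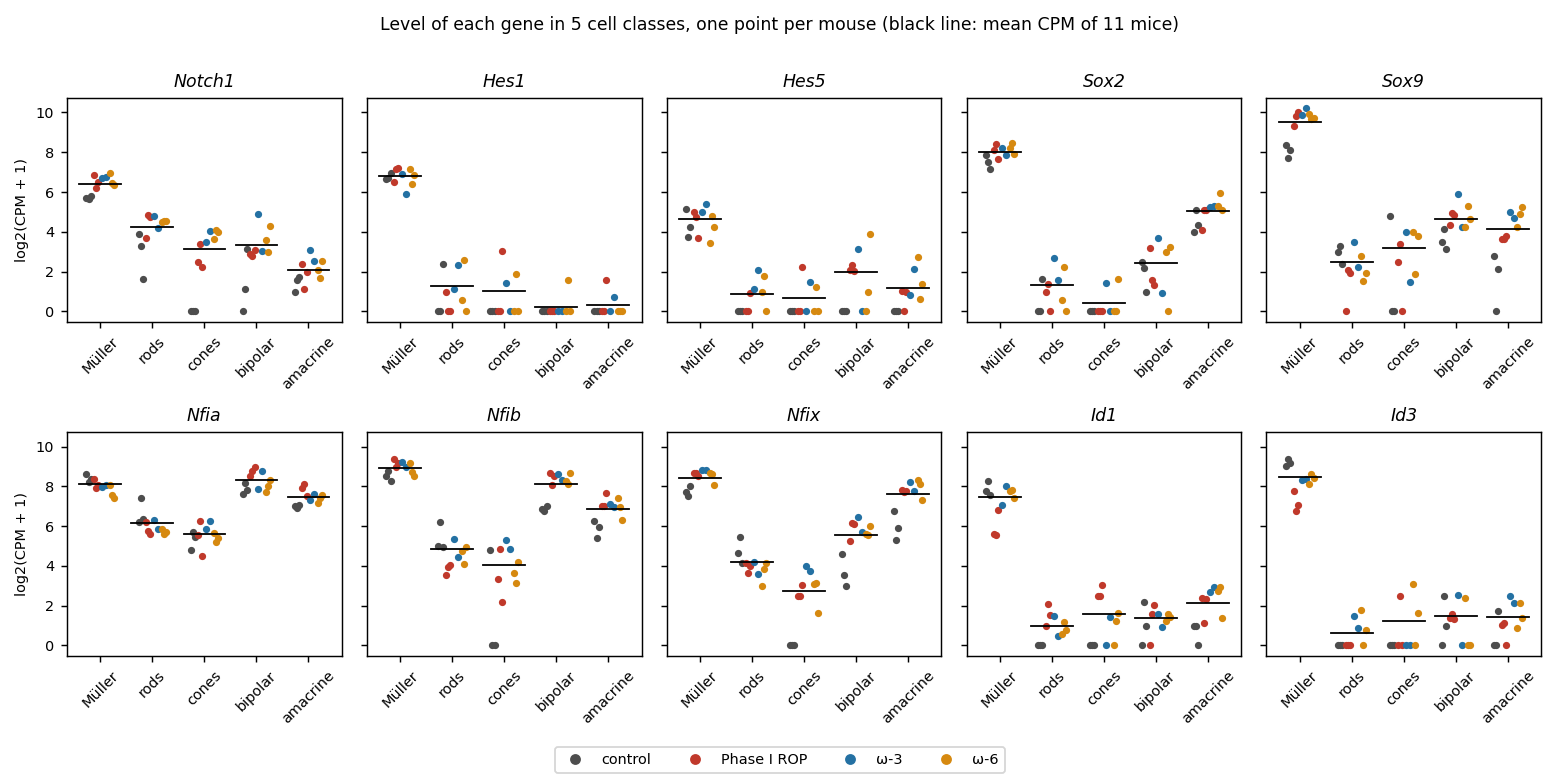
Level of each of the 10 genes, as log2(CPM + 1), in Müller glia, rods, cones, bipolar cells and amacrine cells, with 1 point per mouse coloured by group and a black line at the mean CPM of 11 mice. Hes1, Sox9, Id1 and Id3 drop steeply from Müller glia to every neuronal class, and Nfia stays high in bipolar and amacrine cells.

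Notch1, the receptor, stood at 84.5 ± 26.0 CPM in Müller glia (SD, n = 11 mice), with a lowest, median and highest mouse of 49.0, 86.0 and 121 CPM. It was next highest in rods, at 18.3 ± 8.26 CPM (2.13 to 27.4), and lay between 3.30 and 9.24 CPM on average in the other classes. Notch1 in rods amounted to a median of 25.8% of the Müller level (3.92% to 38.0% over mice). The 12 Müller markers, chosen to name that class, reached a median of 0.762% of theirs in rods. The part of Müller RNA in rod Notch1 was not tested. Rods held 30.4% of all Notch1 UMIs, near their 28.1% of the UMIs of all genes. Müller glia held 40.7% of Notch1, with 8.61% of the UMIs of all genes.

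Hes1, a repressor that Notch signalling induces, was at 112 ± 27.5 CPM in Müller glia, with a lowest, median and highest mouse of 59.0, 116 and 145 CPM. In the 4 neuronal classes its mean was between 0.182 and 1.45 CPM, and no mouse exceeded 7.25. Hes5, the second Notch-induced repressor, was sparse at 23.7 ± 10.3 CPM in Müller glia (9.83, 25.8 and 40.7), from 101 UMIs in all. Hes5 was higher in Müller glia than in bipolar cells, at 2.98 ± 4.34 CPM, in 11 of 11 mice, but the ranges of the classes overlapped.

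Sox2, a progenitor factor of the SoxB1 group, was at 255 ± 65.6 CPM in Müller glia, with 142, 239 and 356 CPM in the lowest, median and highest mouse. Amacrine cells followed at 32.6 ± 12.9 CPM (14.8 to 61.1), apart from both Müller glia and bipolar cells (4.44 ± 3.86) without overlap. Sox9, a SoxE factor required for Müller glia, was at 737 ± 332 CPM in Müller glia, and its lowest, median and highest mouse were at 208, 829 and 1191 CPM. In bipolar cells it was at 24.4 ± 14.4 CPM and in rods at 4.59 ± 3.06 CPM. Müller glia held 78.8% of all Sox9 UMIs and 62.7% of all Sox2 UMIs.

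The NFI factors followed another order. Nfia was at 314 ± 106 CPM in bipolar cells and 272 ± 63.1 CPM in Müller glia, and these 2 classes could not be ordered, since bipolar cells were higher in 6 of 11 mice. Amacrine cells followed at 176 ± 48.5 CPM, rods at 71.5 ± 34.5 and cones at 47.6 ± 17.4, each overlapping its neighbour. For Nfib, Müller glia at 481 ± 111 CPM exceeded bipolar cells at 279 ± 115 CPM in 10 of 11 mice, with overlapping ranges. For Nfix, Müller glia at 346 ± 98.5 CPM exceeded amacrine cells at 194 ± 93.8 CPM in 11 of 11 mice, again with overlap across mice. Müller glia, with 7.11% of the cells and 8.61% of all UMIs, held 14.0% of Nfia, 28.9% of Nfib and 30.0% of Nfix UMIs. Amacrine cells, with 27.9% of all UMIs, held 54.0% of Nfix.

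Id1 and Id3, the inhibitors of proneural factors, were near 0 in the neuronal classes. Id1 was at 174 ± 83.8 CPM in Müller glia (46.4, 186 and 313 in the lowest, median and highest mouse), against means of 0.975 to 3.41 CPM in the neuronal classes. Id3 was at 354 ± 178 CPM in Müller glia (108, 335 and 668), against means of 0.530 to 1.80 CPM.

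Single Müller cells often showed several of the genes together. Sox9 was seen in 49.3% of the 1425 Müller cells, Nfib in 47.2%, Nfix in 45.7% and Hes5 in 4.35%, at a median of 2082 UMIs per cell. In rods, which serve as the background, Sox9 was seen in 0.466% of cells at a median of 1054 UMIs. After each cell was thinned to 800 UMIs, which left out 203 Müller cells and 2837 rods, the shares for Sox9 were 31.8% and 0.270%. At this equal depth 21.1% of Müller cells showed 3 or more of the 10 genes, against 0.0142% of rods, 0.773% of bipolar cells and 0.348% of amacrine cells (unthinned, 51.9% of Müller cells and 0.132% of rods).

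Outside the 5 large classes, UMIs of all 10 genes were seen in the astrocyte-like cells (47 cells). For Hes5 this rests on 1.82% of its few UMIs. The endothelial cells (113 cells) carried the Hes1 and Id genes, and also Notch1, Nfia and Nfib, without Sox2. These classes had too few cells per mouse for a test, so UMIs were pooled over mice and intervals are exact Poisson 95% limits that cover counting error only. In astrocyte-like cells Sox9 was at 795 CPM (694 to 907), and Sox2 at 333 CPM (269 to 408). Id3 reached 1035 CPM (919 to 1162) there, above the pooled Müller level of 350.0 CPM. Igf2 and H19, which are not astrocyte markers, led this small cluster beside Pdgfra, Gfap and S100b.

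In endothelial cells, which line the retinal vessels, Hes1 was at 158 CPM (130 to 191), against 108 CPM (98.2 to 119) pooled in Müller glia. In the 3 mice with at least 10 endothelial cells it was at 58.1, 94.3 and 208 CPM, which overlapped the Müller range of 59.0 to 145 CPM over mice, so the classes could not be ordered. Id3 was at 351 CPM (308 to 399), within counting error of the pooled Müller level, and Id1 at 117 CPM. Over mice Müller Id3 was at 354 ± 178 CPM, a spread that this interval does not cover. The groups of mice also made up unlike parts of the 2 pools. Endothelial cells also held 4.97% of all Notch1, 2.69% of Nfib and 1.54% of Nfia UMIs, with 1.49% of the UMIs of all genes. No Sox2 or Hes5 UMI was seen in endothelial cells, which allows up to 5.40 CPM for each. This cluster also expressed the pericyte gene Rgs5. Retinal pigment epithelium, a remnant of the dissection with 75 cells, had Sox9 at 289 CPM (195 to 413) and no Sox2 UMI. In the 96 retinal ganglion cells Nfia was at 79.1 CPM and every other member at 5.6 CPM or less.

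**Figure D2:**
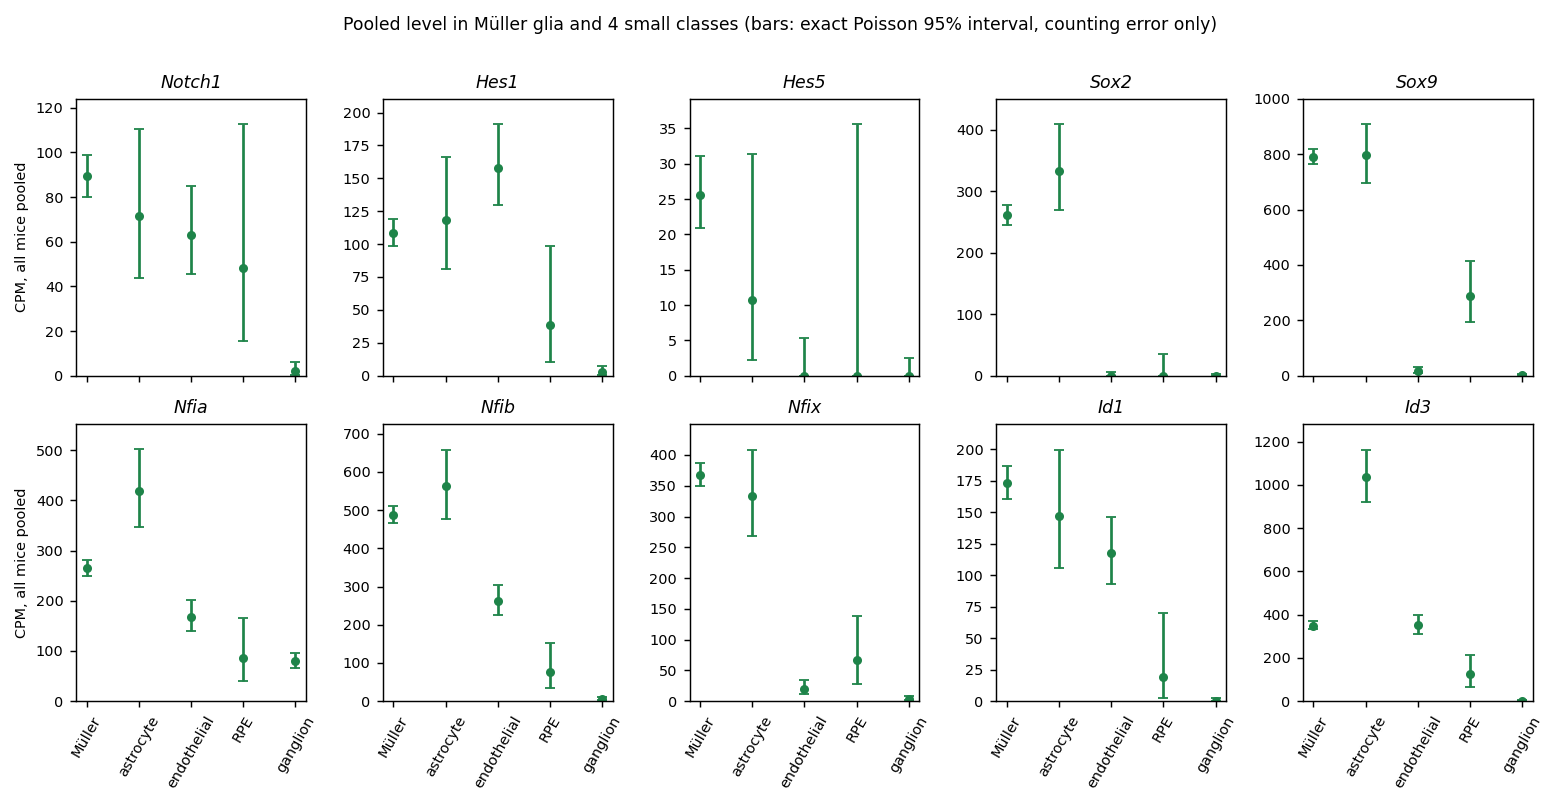
Pooled CPM of the 10 genes in Müller glia, astrocyte-like cells, endothelial cells, retinal pigment epithelium (RPE) and retinal ganglion cells, with exact Poisson 95% intervals. Endothelial Sox2 lies at 0, and the pooled astrocyte-like Id3 is the highest of the 5 classes. The intervals cover counting error and not the spread between mice.

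Within the neuronal classes, Sox2 and the NFI genes were carried by different clusters. The clusters were built from all variable genes, members included, so their levels are descriptions. Starburst amacrine cells (128 cells, led by Chat, Slc18a3 and Slc5a7, genes of acetylcholine use) had Sox2 at 422 ± 179 CPM over 11 mice, with a lowest, median and highest mouse of 209, 355 and 766. They held 97.3% of all amacrine Sox2 UMIs, and no other amacrine cluster had a mean over 1.25 CPM.

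Nfib and Nfix marked a cluster of 1356 amacrine cells led by Ebf3, Ppp1r17 and Nhlh2, which held 91.7% of amacrine Nfib and 94.1% of amacrine Nfix UMIs. In it Nfib was at 388 ± 141 CPM (160, 405 and 598 in the lowest, median and highest mouse) and Nfix at 685 ± 320 CPM (114, 826 and 1018). The next cluster, led by Pantr1 and Pou3f3, had 108 ± 162 and 128 ± 167 CPM, lower in 11 of 11 mice for both genes. Nfia instead was highest in the glycinergic cluster with the glycine transporter Slc6a9, at 735 ± 215 CPM (367, 727 and 1004), against 120 ± 38.9 CPM in the Ebf3 cluster, and was higher there in 11 of 11 mice.

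The bipolar classes also differed. Nfia was at 376 ± 135 CPM in the cluster with Pcp2, Trpm1 and Grm6, genes of ON and rod bipolar cells. It was at 126 ± 37.0 CPM in the cluster with Grik1 and Scgn, genes of cone bipolar cells, and the order held in 11 of 11 mice. Nfix had the same order in 11 of 11 mice, at 58.5 ± 30.9 and 8.20 ± 6.97 CPM. Nfib did not separate them, at 265 ± 108 and 317 ± 186 CPM. Sox9 was low in both, at 17.7 ± 13.3 and 44.8 ± 29.4 CPM, and higher in the Grik1 cluster in 11 of 11 mice.

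**Figure D3:**
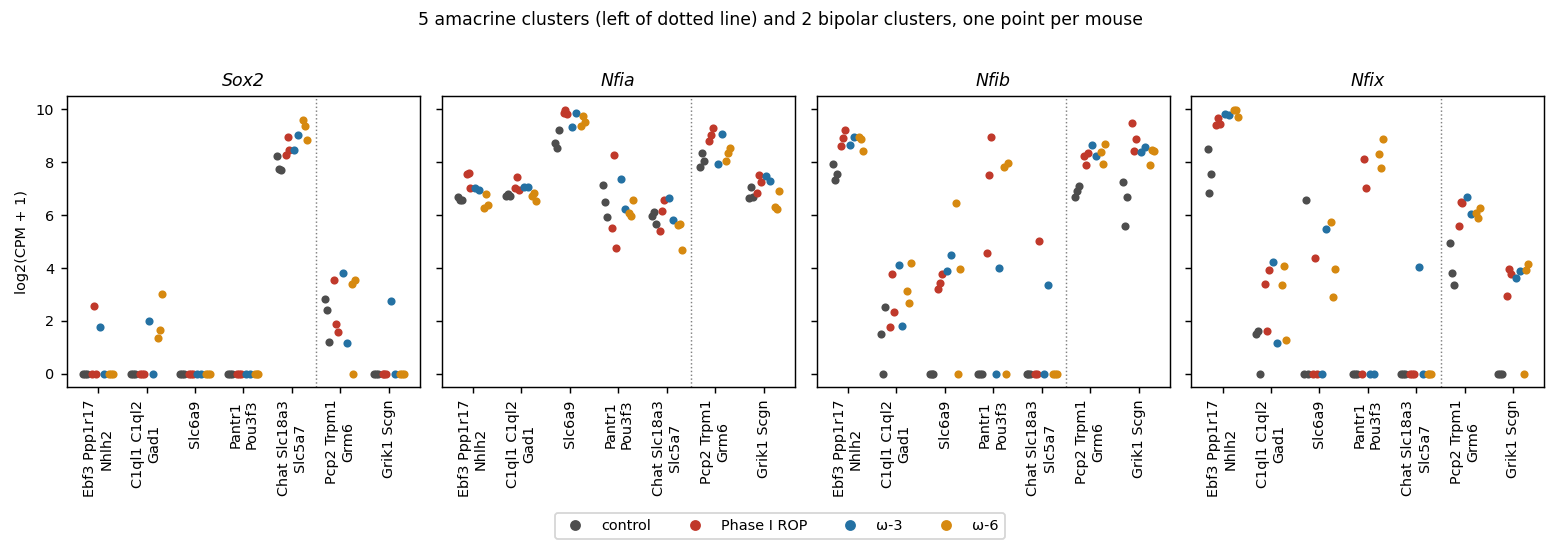
Levels of Sox2, Nfia, Nfib and Nfix, as log2(CPM + 1), in 5 amacrine clusters (left of the dotted line) and 2 bipolar clusters, named by leading genes, with 1 point per mouse coloured by group. Sox2 sits in the Chat cluster, Nfib and Nfix in the Ebf3 cluster and Nfia in the Slc6a9 cluster.

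To see whether these factors differed in the disease model, Phase I ROP was compared with control within each class. In Müller glia, Id1 and Id3 fell 3.71-fold and 4.02-fold, Sox9 rose 2.86-fold and Nfix rose 1.64-fold, while Notch1, Hes1 and Sox2 did not pass the test. UMIs were summed per mouse and tested with edgeR's quasi-likelihood method, with p-values adjusted by Benjamini-Hochberg over all genes of a class, and a gene passed at an adjusted p under 0.05. Of the 10 members 9 could be tested in Müller glia, of which 2 rose and 2 fell, where 10.8% of all 4855 genes passed (5.81% higher and 5.03% lower). Values per mouse are CPM scaled by the trimmed mean of M-values (TMM).

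**Figure D4:**
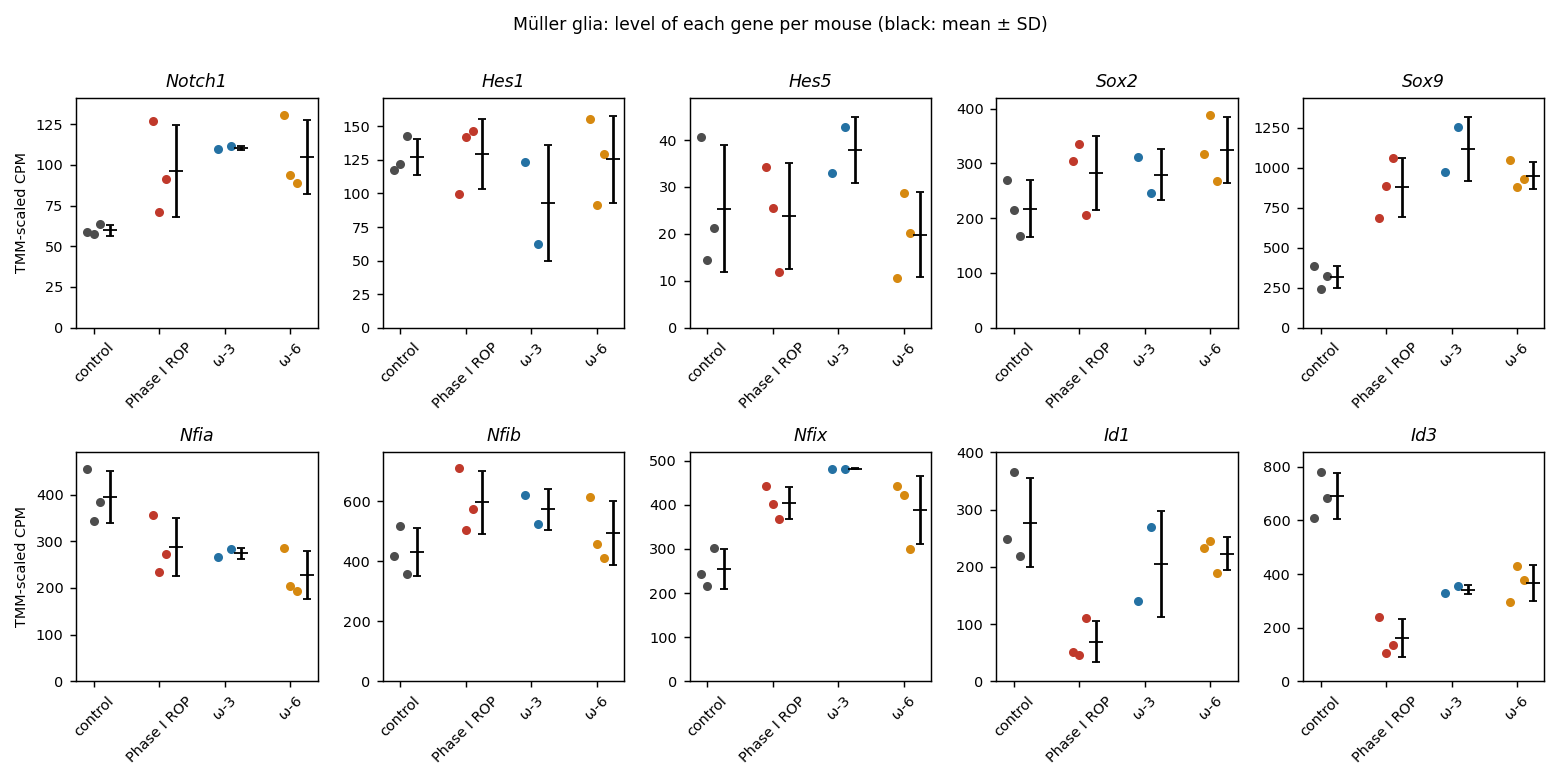
TMM-scaled CPM of the 10 genes in Müller glia of each mouse in the control, Phase I ROP, ω-3 and ω-6 groups, with mean ± SD in black. Sox9 is lowest and Id3 highest in the 3 control mice, and the diet groups lie between control and Phase I ROP for Id3.

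Notch1 was at 58.6, 57.4 and 63.7 scaled CPM in the control mice and at 127, 71.2 and 91.3 in the Phase I ROP mice. The Phase I ROP mice were all higher and more spread, but the counts behind these values were only 8 to 37 UMIs per mouse. The log2 fold change of 0.75 (SE 0.34) had an edgeR adjusted p of 0.171. Hes1 was at 117, 122 and 143 in control and at 99.3, 142 and 147 in Phase I ROP, with overlapping groups and a log2 fold change of 0.07 (SE 0.28, edgeR adjusted p = 0.895). Its sign turned without control mouse 1 (-0.024) or Phase I ROP mouse 3 (-0.042). Hes5, at 40.6, 14.3 and 21.2 in control and 34.2, 25.4 and 11.9 in Phase I ROP, had 2 to 10 UMIs per mouse and was too low to be tested.

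Sox9 showed the clearest rise. It was at 383, 244 and 321 scaled CPM in control and at 688, 884 and 1059 in Phase I ROP, so that every Phase I ROP mouse lay above every control mouse. Groups did not overlap, in either direction, for 5 of the 9 tested members and for 32.4% of all genes. The log2 fold change was 1.52 (SE 0.21, edgeR adjusted p = 0.000345) and stayed between 1.35 and 1.77 over 16 alternatives, all of which passed. Sox2 was at 270, 215 and 167 in control and at 305, 335 and 206 in Phase I ROP, with overlap and a log2 fold change of 0.45 (SE 0.25, edgeR adjusted p = 0.270).

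Of the NFI factors, Nfix was at 243, 215 and 303 scaled CPM in control and at 442, 402 and 369 in Phase I ROP, without overlap. Its log2 fold change was 0.71 (SE 0.20, edgeR adjusted p = 0.0331). The call was lost without control mouse 1 (adjusted p = 0.149) or 2 (0.107) and without Phase I ROP mouse 1 (0.125), 2 (0.108) or 3 (0.0640), as well as with DESeq2 (0.134), and the log2 fold change stayed between 0.61 and 0.87. Nfib, at 419, 517 and 358 in control and 712, 503 and 575 in Phase I ROP, overlapped and did not pass (log2 fold change 0.56, SE 0.19, edgeR adjusted p = 0.0834). Nfia was at 455, 344 and 385 in control and at 356, 234 and 274 in Phase I ROP, also with overlap (log2 fold change -0.39, SE 0.21, edgeR adjusted p = 0.242).

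Both Id genes fell. Id1 was at 248, 366 and 218 scaled CPM in control and at 51.4, 45.7 and 111 in Phase I ROP, and Id3 at 608, 782 and 685 in control and at 240, 107 and 135 in Phase I ROP. Neither gene overlapped between the groups. The log2 fold changes were -1.89 (SE 0.35, edgeR adjusted p = 0.00342) for Id1 and -2.01 (SE 0.25, edgeR adjusted p = 0.000188) for Id3. Both calls were kept in all 16 alternatives, with -2.40 to -1.68 for Id1 and -2.43 to -1.80 for Id3.

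Other signals moved with these groups in Müller cells. Rod markers summed to 91.9 to 499 CPM in control and 854 to 2559 in Phase I ROP, bipolar markers to 31.0 to 72.4 and 78.5 to 353, amacrine markers to 399 to 527 and 555 to 598, endothelial markers to 1350 to 1508 and 2123 to 3019, and retinal pigment epithelium markers to 10.3 to 12.3 and 12.6 to 82.4, while the Müller markers themselves lay at 23296 to 27847 and 22098 to 28062. Of the dissociation and immediate early list, 18 of 22 tested genes rose in Müller glia and none fell. Median UMIs per Müller cell were 2174 in control and 1680 in Phase I ROP. The part of any of these in the changes of Sox9, Nfix, Id1 and Id3 was not tested. Sums thinned to equal depth kept all 4 calls.

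In rods Nfia and Nfib fell, and Nfix was too low to be tested. Nfia was at 84.1, 177 and 92.9 scaled CPM in control and at 73.7, 49.9 and 45.9 in Phase I ROP, and Nfib at 36.1, 77.1 and 34.2 and at 10.8, 13.6 and 15.3. Neither gene overlapped between the groups (51.9% of all genes in rods did not). Both of the 2 members that could be tested fell, where 38.0% of all genes passed and 20.0% fell, with log2 fold changes of -1.19 (SE 0.34, edgeR adjusted p = 0.0127) for Nfia and -1.98 (SE 0.46, edgeR adjusted p = 0.00315) for Nfib. The Nfia call was lost without control mouse 2 (log2 fold change -0.72, adjusted p = 0.0708) and without Phase I ROP mouse 2 (-1.05, 0.0645) or 3 (-0.95, 0.0863).

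Rods hold few UMIs of these genes, 9 to 75 per mouse for the 2 genes in these groups, and markers of other neurons moved with them. Bipolar markers in rods summed to 282 to 622 CPM in control and 182 to 218 in Phase I ROP, and amacrine markers to 264 to 493 and 189 to 222. Their part in the lower Nfia and Nfib was not tested. With sums thinned to equal depth Nfia no longer passed (log2 fold change -1.05, edgeR adjusted p = 0.0815) and Nfib was too low to be tested.

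Bipolar cells showed the opposite direction. Nfib was at 139, 131 and 159 scaled CPM in control and at 384, 240 and 330 in Phase I ROP, and Nfix at 28.3, 13.0 and 8.62 and at 35.4, 62.7 and 63.0, both without overlap (2 of 4 members, and 55.4% of all genes). Of the 4 members tested 3 rose, against 45.3% of genes that passed in either direction and 21.3% that rose. The log2 fold changes were 1.16 (SE 0.18, edgeR adjusted p = 0.000175) for Nfib and 1.69 (SE 0.41, edgeR adjusted p = 0.00438) for Nfix, and both passed in all 16 alternatives.

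Nfia in bipolar cells, at 239, 356 and 276 scaled CPM in control and at 346, 390 and 465 in Phase I ROP, overlapped at 1 mouse of each group. It rose by 0.46 on the log2 scale (SE 0.16, edgeR adjusted p = 0.0315). The call was lost without control mouse 1 (0.33, adjusted p = 0.158) or 3 (0.41, 0.0821) and without Phase I ROP mouse 2 (0.50, 0.0653) or 3 (0.35, 0.149). Sox9, at 12.8, 20.2 and 9.85 in control and 18.5, 26.9 and 25.2 in Phase I ROP, did not pass (log2 fold change 0.72, SE 0.40, edgeR adjusted p = 0.147).

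Amacrine cells resembled bipolar cells. Nfib was at 85.9, 48.2 and 72.0 scaled CPM in control and at 124, 118 and 190 in Phase I ROP, and Nfix at 126, 44.8 and 69.3 and at 218, 190 and 208, again without overlap, as for 4 of 5 members (50.3% of all genes). Of 5 members tested 3 rose, against 38.8% of genes that passed and 18.3% that rose. The log2 fold changes were 1.04 (SE 0.23, edgeR adjusted p = 0.00284) for Nfib and 1.33 (SE 0.25, edgeR adjusted p = 0.00106) for Nfix, and both passed in all 16 alternatives.

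For Nfia in amacrine cells the control mice were at 150, 142 and 159 and the Phase I ROP mice at 234, 253 and 170 scaled CPM, without overlap. The log2 fold change of 0.51 (SE 0.17, edgeR adjusted p = 0.0231) was lost without control mouse 1 (adjusted p = 0.0693) or 2 (0.0700) and without Phase I ROP mouse 1 (0.0741) or 2 (0.121). Sox9, with 0 to 13 UMIs per mouse, was at 6.87, 0 and 4.08 in control and 11.2, 10.6 and 12.2 in Phase I ROP. Its log2 fold change of 1.58 (SE 0.61, edgeR adjusted p = 0.0529) did not pass, and it passed without control mouse 1 (2.47, adjusted p = 0.0345). Sox2 was at 17.2, 39.0 and 23.1 and at 15.3, 30.8 and 32.0, with overlap (log2 fold change -0.05, SE 0.37, edgeR adjusted p = 0.921). Its sign turned without control mouse 2 (0.33) or Phase I ROP mouse 1 (0.21).

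Within the clusters that carry the NFI genes their levels differed in the same direction, given here without a test. The cluster levels are CPM without TMM scaling. With total-count scaling the median log2 fold change over all genes was 0.37 in amacrine and 0.45 in bipolar cells. The part of this shift in the cluster differences was not tested. In the Ebf3 amacrine cluster Nfix was at 221 ± 127 CPM in control (114 to 362) and 738 ± 77.0 in Phase I ROP (682 to 826), and Nfib at 198 ± 43.9 and 490 ± 106. Nfia in the Slc6a9 cluster was at 465 ± 121 CPM (367 to 601) and 954 ± 45.5 (916 to 1004). The Ebf3 cluster made up 43.3 ± 2.24% of amacrine cells in control and 40.8 ± 5.13% in Phase I ROP. The Slc6a9 cluster made up 8.06 ± 0.310% in control and 10.3 ± 3.00% in Phase I ROP. The part of these shares in the amacrine changes was not tested. Starburst Sox2 was at 242 ± 54.5 CPM in control (209 to 304) and 388 ± 97.4 in Phase I ROP (310 to 497). These ranges nearly met before TMM scaling, and scaled Sox2 over all amacrine cells overlapped. In bipolar cells Nfib was at 119 ± 17.5 and 287 ± 44.8 CPM in the Pcp2 cluster and at 101 ± 52.9 and 511 ± 192 CPM in the Grik1 cluster.

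In these neurons too, the dissociation and immediate early genes were apart, at 1484 to 1737 CPM in control and 4184 to 5236 in Phase I ROP in amacrine cells and at 1259 to 1636 and 2098 to 2387 in bipolar cells. Amacrine markers in amacrine cells summed to 3734 to 3905 CPM in control and 5514 to 6847 in Phase I ROP, and bipolar markers in bipolar cells to 5292 to 5608 and 6215 to 7759. These marker and dissociation sums are CPM without TMM scaling. Their part in the NFI changes was not tested. In cones no member had enough counts to be tested (18.8% of cone genes passed), and Nfia lay at 28.3, 54.9 and 55.5 scaled CPM in control and at 51.0, 77.1 and 22.5 in Phase I ROP, with overlap.

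**Figure D5:**
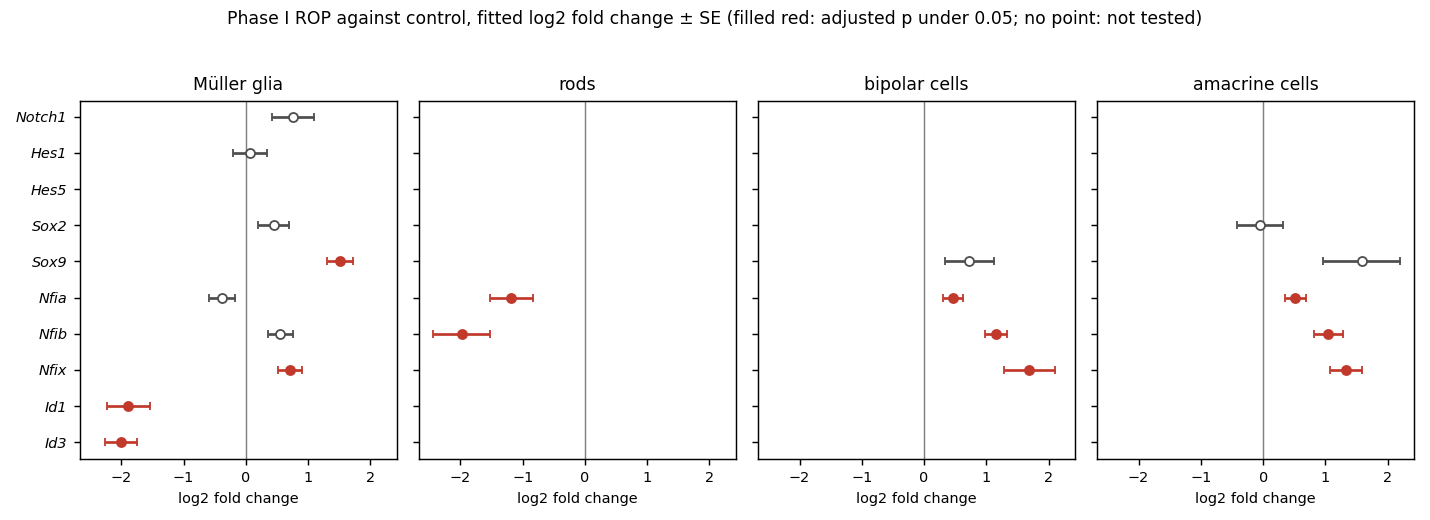
Fitted log2 fold change of Phase I ROP against control ± SE for each member in Müller glia, rods, bipolar cells and amacrine cells (filled red, edgeR adjusted p under 0.05, and open, not passed, with no point where the gene was too low to test). Nfib lies at -1.98 in rods and at 1.16 and 1.04 in bipolar and amacrine cells.

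Whether the change itself differed between Müller glia and another class was tested by an interaction term in edgeR, for 11 pairs of a member and a class. The Nfib change was higher in Müller glia than in rods by 2.38 on the log2 scale (SE 0.41, edgeR adjusted p = 0.00167, where 7.09% of genes passed), and this held without each mouse in turn (2.09 to 2.68). The Nfia change was lower in Müller glia than in bipolar cells (-1.11, SE 0.27, edgeR adjusted p = 0.0337, with 4.00% of genes passed) and than in amacrine cells (-1.14, SE 0.26, edgeR adjusted p = 0.0363, with 1.46% passed).

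Both Nfia calls depended on single mice. Against bipolar cells the adjusted p was 0.102 without control mouse 1, 0.0899 without control mouse 3, 0.146 without Phase I ROP mouse 2 and 0.167 without Phase I ROP mouse 3. Against amacrine cells no call was left without control mouse 1 (0.121), 2 (0.0524) or 3 (0.0919) or without Phase I ROP mouse 1 (0.0725), 2 (0.192) or 3 (0.0599). For Nfib the change in Müller glia was lower than in bipolar cells by a difference of -0.81 (SE 0.22), which did not pass (edgeR adjusted p = 0.0506) but passed without control mouse 3 (-1.0, 0.0382). Nfix gave -1.20 (SE 0.45, edgeR adjusted p = 0.160) against bipolar and -0.91 (SE 0.31, edgeR adjusted p = 0.173) against amacrine cells, and passed without control mouse 1 (-1.84, 0.0377, and -1.38, 0.0300).

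Over the 7 lists of related genes, 7 of 52 tested genes passed in Müller glia (13.5%), against 10.8% of all genes. Of 6 tested ligands, receptors and modulators of Notch none passed in either direction, and of 12 genes of Notch cleavage and the nuclear complex 1 rose and none fell. This was Spen, a corepressor that RBPJ recruits, with group means of 14.7 and 43.3 scaled CPM in control and Phase I ROP (log2 fold change 1.72, SE 0.51, edgeR adjusted p = 0.0428). Of 8 other Hes, Hey, Id and Groucho genes 1 rose and 1 fell. The corepressor Tle3 rose by 2.10 (SE 0.51, edgeR adjusted p = 0.0181), and Id2, a further Id gene, fell by 1.38 on the log2 scale (SE 0.26, edgeR adjusted p = 0.00427), from a mean of 579 to 209 scaled CPM.

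None of 6 tested genes of BMP and TGF-beta signalling passed in Müller glia, with a median log2 fold change of 0.50 against 0.00 over all genes. Of 4 other Sox and NFI genes none passed. Among 12 other glial and progenitor regulators 2 rose and 1 fell: Stat3, a mediator of cytokine signals in glia, rose by 2.54 (SE 0.28, edgeR adjusted p = 6.11e-05), Zfp36l1 rose by 1.58 (SE 0.20, edgeR adjusted p = 0.000170), and the eye field factor Six6 fell by 1.39 on the log2 scale (SE 0.27, edgeR adjusted p = 0.00454). Of 4 proneural factors 1 rose, the photoreceptor factor Neurod1 (log2 fold change 4.35, SE 0.61, edgeR adjusted p = 0.000461), from a mean of 3.52 to 94.5 scaled CPM. Cone markers in Müller cells summed to 7.75 to 36.8 CPM in control and 74.6 to 402 in Phase I ROP, and the rod markers given above were also higher. Mean Neurod1 in control and Phase I ROP was 532 and 2030 scaled CPM in rods and 259 and 1471 in cones. The part of rod or cone RNA in Müller Neurod1 was not tested.

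In the neurons the 7 lists passed more often, as all genes did: 22 of 45 tested genes in rods (48.9%, against 38.0% of all genes), 39 of 69 in bipolar cells (56.5%, against 45.3%), 39 of 72 in amacrine cells (54.2%, against 38.8%) and 4 of 20 in cones (against 18.8%). Of the Notch ligand list 5 of 11 tested genes rose in amacrine, 4 of 11 in bipolar cells and 3 of 5 in rods, and none fell. Over all genes 18.3% rose in amacrine cells and 21.3% in bipolar cells, and 20.0% fell in rods. In rods the ligand Jag1 rose by 2.35 (SE 0.49, edgeR adjusted p = 0.00147). The cleavage and nuclear list went both ways, with 5 rising and 3 falling of 16 in bipolar cells, 4 and 3 of 14 in amacrine cells and 3 and 3 of 13 in rods. Adam17, a protease that can cut Notch receptors, fell by 2.50 on the log2 scale in rods (SE 0.30, edgeR adjusted p = 1.50e-05). The gamma-secretase subunit Psenen fell by 1.57 in amacrine cells (SE 0.18, edgeR adjusted p = 1.89e-05), where Rbpj, the nuclear partner of Notch, fell by 0.94 (SE 0.29, edgeR adjusted p = 0.0191).

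Sox4, a SoxC factor of young neurons, rose by 1.80 in bipolar (SE 0.14, edgeR adjusted p = 4.74e-07) and by 2.22 in amacrine cells (SE 0.17, edgeR adjusted p = 1.21e-06). It belongs to the other Sox and NFI genes, of which 3 of 5 rose in each of these classes, 1 of 3 in rods and none of 1 in cones. Beside all counts of this paragraph, 18.3% of all genes rose in amacrine cells and 21.3% in bipolar cells. In rods 38.0% of all genes passed in either direction and 20.0% fell, and in cones 18.8% passed. Of the other Hes, Hey, Id and Groucho genes 6 of 10 rose in amacrine cells, while 4 rose and 1 fell of 8 in bipolar cells, 1 and 1 of 4 in rods, and none of 2 passed in cones. The glial and progenitor list had 7 of 11 higher in amacrine cells, 6 of 9 in bipolar cells and 1 of 5 in cones, and in rods 1 rose and 3 fell of 8. Proneural factors rose for 7 of 9 in bipolar, 4 of 9 in amacrine cells and 2 of 4 in cones, and in rods 1 rose and 1 fell of 5. Genes of BMP and TGF-beta signalling rose for 7 of 12 in amacrine cells, 6 of 11 in bipolar cells, 4 of 7 in rods and 1 of 4 in cones, with none falling. None of 4 genes of the cleavage and nuclear list passed in cones. Of the dissociation genes 19 of 20 rose and 1 fell in amacrine cells, 9 of 12 rose and 1 fell in bipolar cells, and 15 of 16 rose in rods and 10 of 12 in cones.

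To see whether the diets shifted the factors, ω-6 was compared with ω-3 within the STZ mice. No member passed in any class by edgeR's quasi-likelihood test, with 10 members tested in Müller glia, 4 in rods, 2 in cones, 5 in bipolar and 5 in amacrine cells. Over all genes edgeR called 0 in Müller glia, cones, bipolar and amacrine cells and 2 in rods (0.0161%). At an unadjusted p under 0.05 the shares were 3.56% of genes in Müller glia, 11.2% in rods, 8.03% in cones, 4.21% in bipolar and 9.89% in amacrine cells, and the members at that level were both of those tested in cones and none elsewhere. No member was free of overlap between the diets in rods, bipolar or amacrine cells, where 29.1%, 19.8% and 28.4% of all genes were. DESeq2 called 2, 36, 5, 2 and 8 genes in Müller glia, rods, cones, bipolar and amacrine cells. It called none of the 10, 5 and 3 members to which it gave an adjusted p in Müller glia, bipolar and amacrine cells, and gave none to those in rods and cones.

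In Müller glia Hes5 was at 32.9 and 42.9 scaled CPM on ω-3 and at 10.6, 28.7 and 20.1 on ω-6. The ω-6 mice were all lower, but the log2 fold change of -0.87 (SE 0.52) had an edgeR adjusted p of 0.994. Hes1, at 123 and 62.1 on ω-3 and 155, 91.3 and 129 on ω-6, had the highest fold change of the members, 0.39 (SE 0.34, edgeR adjusted p = 0.994), with overlap. Nfix was at 481 and 482 on ω-3 and at 442, 422 and 299 on ω-6 (log2 fold change -0.31, SE 0.22, edgeR adjusted p = 0.994), without overlap. Groups did not overlap, in either direction, for 2 of 10 members and for 19.0% of all genes in Müller glia. These values do not show that the diets act alike, since with 2 and 3 mice 23.7% of simulated 2-fold changes and 87.4% of 4-fold changes were found in Müller glia.

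Sox9 in Müller glia was at 975 and 1256 scaled CPM on ω-3 and at 1046, 879 and 926 on ω-6, in the range of the Phase I ROP mice or above it. Id3 was at 330 and 354 on ω-3 and at 297, 430 and 377 on ω-6, all above the Phase I ROP mice and below the control mice. Id1 was at 140 and 270 on ω-3 and at 233, 245 and 190 on ω-6, where it overlapped the control mice. The diet groups were not tested against the control or Phase I ROP mice.

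In cones Nfia was at 61.5 and 82.9 scaled CPM on ω-3 and at 54.0, 39.5 and 44.8 on ω-6, and Nfib at 41.6 and 30.2 and at 12.5, 8.78 and 18.9. Both were lower in every ω-6 mouse (25.1% of all genes did not overlap, in either direction) and had unadjusted p-values of 0.0440 and 0.00710 in edgeR, with adjusted p of 0.615 and 0.548. The log2 fold changes were -0.65 (SE 0.30) and -1.47 (SE 0.47), from 6 to 44 UMIs per mouse. In rods Nfia was at 72.9 and 54.4 on ω-3 and at 55.6, 49.8 and 53.9 on ω-6, with overlap (log2 fold change -0.26, SE 0.20, edgeR adjusted p = 0.643). None of the genes of the 8 lists passed between the diets, with 99 tested in Müller glia, 92 in rods, 75 in cones, 102 in bipolar and 112 in amacrine cells.

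The genes whose level most resembled each member over the 55 sums of 5 classes and 11 mice were named by a fixed rule, 3 per member. By Pearson's r of log2 CPM across these sums, which share classes and libraries and are given without a p, Hes1 was most like Efhd1 (0.972), Abca8a (0.970) and Lipg (0.965), and Id3 like S1pr1 (0.971), Dbi (0.970) and Cox4i2 (0.970). Notch1 was most like Gldc (0.939), Ctdsp1 (0.901) and Tmem159 (0.898), Hes5 like Aldh1a1 (0.896), Chrdl1 (0.891) and Bves (0.889), and Id1 like Cav1 (0.958), Gm37509 (0.952) and Sbspon (0.950). Sox2 was most like Ptn (0.959), Dkk3 (0.958) and Megf10 (0.952), and Sox9 like Ildr2 (0.942), Flna (0.928) and Col9a3 (0.926). The NFI genes had other partners: Nfia was most like Gm21949 (0.920), Prox1 (0.918) and Cntn1 (0.916), Nfib like Tmtc2 (0.937), Tgfb2 (0.931) and Ptprd (0.919), and Nfix like Ptprf (0.959), Pag1 (0.941) and Tox3 (0.938).

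The members are protein-coding genes on chromosomes 2, 3, 4, 8, 11 and 16 (GENCODE M21, GRCm38). Nfia (chr4:97772734-98118874, plus strand) and Nfib (chr4:82290173-82705750, minus strand) are the longest, at 346141 and 415578 bases, and Id1 (chr2:152736251-152737410, plus strand) is the shortest, at 1160 bases. Hes5 (chr4:154960923-154962371) and Id3 (chr4:136143497-136145755) lie on the plus strand of the same chromosome. Sox9 is at chr11:112782224-112787760, Hes1 at chr16:30064384-30067796, both on the plus strand, and Nfix at chr8:84699876-84800344 on the minus strand. Notch1 (chr2:26457903-26516663, minus strand) shares 1068 exonic bases with the antisense gene 0610009E02Rik and 414 with Gm13568, Hes5 shares 433 with Gm20421, and Nfix 137 with G430095P16Rik. The use of strand in counting is not given in the sources used here, so reads of these partners cannot be told apart. Sox2 (chr3:34650405-34652461, plus strand) lies inside Sox2ot on the same strand, with 0 shared exonic bases.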

How the data were processed

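Retinas were measured by inDrop v3 single-cell RNA sequencing on a NextSeq 500, after removal of the anterior segment and pigment epithelium and papain dissociation. The authors deposited raw UMI counts, a row for each gene and a column for each cell, made with umis in bcbio-nextgen and Rapmap on GRCm38 (GENCODE M23). The submitters' processing notes name mm10 and GRCm38.p6. Groups came from the labels, where 2 ω-6 descriptions leave out STZ but their titles give it.

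Members and gene lists (8 lists, 161 genes) were chosen with earlier results of these data known. Cells with more than 300 genes were clustered with Seurat 5.3.0, and clusters were named from canonical markers. A doublet caller (Scrublet in scanpy 1.11.5) marked under 0.5% of cells and was taken not to have worked, so doublets were kept. UMIs were summed per mouse and class, where every mouse had at least 10 cells. Phase I ROP was tested against control and ω-6 against ω-3 with edgeR 4.0.16 (R 4.3.3), quasi-likelihood, with TMM factors, edgeR's own low-count filter and Benjamini-Hochberg adjustment at 0.05. Per-mouse values were scaled by TMM factors over all mice of a class. Differences between classes were tested as an interaction term. Log2 CPM for likeness used a prior count of 2. Named list genes were up to 2 rises and 2 falls per list and class among called genes whose mice did not overlap, from which those of most bearing on the members are given, and all 10 members were named. The test was checked on simulated data, where 83.7% to 98.8% of 4-fold and 15.6% to 54.3% of 2-fold changes were found over the 10 combinations of class and comparison. False calls made up 1.96% to 10.8% of the calls, and 7.83% in Müller glia for Phase I ROP, so the threshold of 0.05 was not held in every combination. Total UMIs were 2565568 to 6517776 per mouse, and intervals of pooled counts cover counting error only.

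Results were recomputed with DESeq2 1.42.0, with median-of-ratios or total-count scaling, without the filter, with 4 groups fitted together, with the title's mouse number as a block, without each mouse in turn, and with cells with more than 500 genes, removal of the 5% highest doublet scores, clustering without members and lists, and sums thinned to equal depth. Total-count scaling was chosen after seeing the data. Differences between classes were refitted only with median-of-ratios scaling, with clustering without members and lists, and without each mouse in turn.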

Additional observations from a re-analysis of the deposited data

Results flagged for a closer look

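Of the 11 pairs of a member and a class, 3 had a Phase I ROP change that differed from that in Müller glia by a test of the difference itself (edgeR's quasi-likelihood interaction term with Benjamini-Hochberg adjustment). For Nfib the change in Müller glia minus that in rods was 2.38 on the log2 scale (SE 0.41, adjusted p = 0.00167), with a log2 fold change of 0.56 in Müller glia and -1.98 in rods. For Nfia the difference was -1.11 against bipolar cells (SE 0.27, adjusted p = 0.0337) and -1.14 against amacrine cells (SE 0.26, adjusted p = 0.0363), where the fold changes themselves were -0.39, 0.46 and 0.51 in Müller, bipolar and amacrine cells. The Nfib difference was called without each of the 6 mice in turn. The Nfia difference was called in 2 of 6 such fits against bipolar cells and in 0 of 6 against amacrine cells. No difference was fitted on sums thinned to equal depth, where Nfib in rods was too low to be tested. Groups of 2 or 3 mice were too small for a test of single outlying mice.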

How the results depend on the processing

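Over the alternatives named with the methods, the levels by class moved by less than 1 SD for 50 of 50 pairs of gene and class under both alternatives tried. Sox9, Id1 and Id3 in Müller glia, Nfib and Nfix in bipolar and amacrine cells and Nfib in rods (15 alternatives) kept their calls in all alternatives that gave a value. With DESeq2, genes called between Phase I ROP and control in Müller glia were 309 in place of 526. All 4 groups in 1 fit gave 4947 genes in rods (3011) and 961 in cones (587), and thinned sums gave 1756 and 147. In rods, no filter left 1 of 2 members called and thinning 0. Without 1 mouse, genes ran from 265 to 420 in Müller glia, 2171 to 3457 in rods and 276 to 649 in cones, and members in rods from 1 to 2. The 3 differences between classes became 1 to 3. Reversed signs, none of them called, were Hes1 in Müller glia without control mouse 1 (-0.024) or Phase I ROP mouse 3 (-0.042), with up to 0.24 without the others, Sox2 in amacrine cells without control mouse 2 (0.33), without Phase I ROP mouse 1 (0.21) or with total-count scaling (0.30), with down to -0.31 otherwise, and, for the difference from amacrine cells, Sox2 without control mouse 2 (-0.15) or Phase I ROP mouse 1 (-0.17), with up to 0.66, and Sox9 without control mouse 2 (0.14), with down to -0.97. The cause was not tested.

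Total-count scaling moved the median over all genes on the log2 scale to 0.16 in Müller glia, 0.35 in rods, 0.42 in cones, 0.45 in bipolar and 0.37 in amacrine cells. With it Nfib in Müller glia passed (0.71, adjusted p = 0.0249), as did Sox9 in bipolar (1.15, 0.0262) and amacrine cells (1.93, 0.0173). Nfib in Müller glia also passed with cells of more than 500 genes (0.64, 0.0464), and Sox9 in amacrine cells with 4 groups in 1 fit (1.62, 0.0419) and with thinned sums (1.62, 0.0455). Nfix in Müller glia was lost without the filter (adjusted p = 0.139) and with 4 groups in 1 fit (0.0594), Nfia in rods without the filter (0.0826) and with thinning (0.0815), in bipolar cells with DESeq2 (0.0675) and 4 groups in 1 fit (0.0984), and in amacrine cells with DESeq2 (0.0535). The Nfia difference from bipolar cells was lost with clustering without members and lists (0.0554).

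Between the diets, genes called in Müller glia, rods, cones, bipolar and amacrine cells (0, 2, 0, 0 and 0) were 2, 36, 5, 2 and 8 with DESeq2 and 9, 156, 12, 18 and 139 without the filter. In rods they were 0 with total-count scaling, 6 with 4 groups in 1 fit and 0 with cells of more than 500 genes. Without 1 mouse they ran from 0 to 4 in Müller glia, 0 to 19 in rods, 0 to 3 in cones, 0 to 0 in bipolar cells and 0 to 5 in amacrine cells. No member with an adjusted p was called in any of these. For Phase I ROP and control, mice of the same number deviated together by a correlation over 0.1 in 1 of 3 pairs in Müller glia and in none in the other classes. The diets share only 2 numbers, of which number 2 had 0.181 to 0.273 and number 1 had 0.0485 to 0.0868 over the 5 classes. The labels tie no number to a litter, batch or day, so the block was kept as an alternative. With the replicate block 10, 36, 22, 17 and 60 genes were called between the diets in these 5 classes, and all Phase I ROP counts stayed within 1.5 times. In simulated data 15.6% to 54.3% of 2-fold changes were found over the 10 combinations of class and comparison.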
